A study of Mus musculus with 8 samples.

Results

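The genes described here are 10 transcripts grouped as tumour macrophage products, some of which other cells also make: Arg1, Spp1, Mmp12, Mmp13, Retnla, Folr2, Saa3, Cd93, Fcna and Lyz2. They were picked by name, with measured values in view, for high levels in libraries sorted as type 2 conventional dendritic cells (cDC2) and near absence in EGFP-negative type 1 conventional dendritic cells (cDC1). All 10 were found among the 24369 gene symbols of the table, and all 10 passed the filter on low counts that left 11394 symbols for testing. Wild-type mice (genotype WT) carried tumours of MC38, a colon carcinoma line made to express the fluorescent protein EGFP, and tumour dendritic cells were sorted by flow cytometry. Each subset was split into cells without and cells with EGFP, which gave 4 groups of 2 libraries, 8 in all, and the labels name no drug for any of them. A dendritic cell counts as EGFP-positive when it carries the fluorescence of the tumour line. Age, sex and the number of animals per library were not given in the sources used here, nor whether replicates were separate animals, so the spread behind each p-value is that between these libraries and could be technical.

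Macrophages that settle in tumours are often described by what they secrete. They break down arginine, remodel matrix with metalloproteinases and release osteopontin, lysozyme and acute-phase proteins. Macrophages that were resident in the tissue before, or that have seen interleukin 4, are commonly recognised by a folate receptor and by a resistin-like protein. Several surface proteins used to gate cDC2 are also carried by macrophages and monocytes, so both can enter such a gate.

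The level of a gene is given as CPM, its count scaled to the size of the library, after TMM scaling, a correction for differences in library composition. Library totals ranged from 17869441 to 22195681 counts, and the ribosomal RNA precursor Rn45s took between 19.4% and 35.6% of them. Gene positions are those of GENCODE M21 on GRCm38, and all 10 genes are protein-coding. A limit of 3 counts in 1 library corresponded to 0.131 to 0.211 CPM, which is the most that a count of 0 allows. Such limits cover counting error only, because reads amplified by PCR are not independent molecules. Across genes, replicates correlated with Pearson's r of 0.629 in EGFP-positive cDC1 and 0.85 to 0.898 in the other groups (genes are not independent replicates), and the EGFP-positive cDC1 libraries therefore stood apart.

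Lineage genes were compared with the labels. In the 4 cDC2 libraries the summed level of 18 macrophage lineage genes lay between 8882 and 19690.1 CPM, against 409 to 420.2 CPM in EGFP-negative cDC1. The macrophage growth factor receptor gene Csf1r was at 205 to 604 CPM and the complement gene C1qa at 979 to 2478 CPM in the cDC2 libraries. Flt3, whose receptor carries the growth signal of dendritic cells, was at 10.8, 0, 5.15 and 0.0495 CPM there, and Zbtb46, a transcription factor gene of conventional dendritic cells, at 0.0539, 0.134, 0 and 1.04 CPM. The cDC2 lectin gene Cd209a was present at 19.2 to 64.7 CPM. Flt3 and Zbtb46 were named after their values were seen. Of the 9 dendritic cell genes shared by both subsets, those of highest mean level were the antigen presentation genes Cd74, at 6712 to 17030 CPM in the cDC2 libraries, H2-Ab1, at 3255 to 8486 CPM, and H2-Aa, at 3070.3 to 8562 CPM. The whole list summed to 13093 to 34147 CPM in cDC2 and 69178 to 69962 CPM in EGFP-negative cDC1. Itgax, which encodes CD11c, was at 51.9 to 82.6 CPM in cDC2 and at 44.9 and 64.7 CPM in EGFP-negative cDC1. Macrophages can also make these class II genes and CD11c. The cDC2 libraries thus carried macrophage lineage RNA and class II RNA at high levels. Flt3 reached at most 10.8 CPM and Zbtb46 at most 1.04 CPM there, against means of 189 and 22.7 CPM in EGFP-negative cDC1. This does not fully match the label of the cDC2 libraries, and cDC2 below names the gate. The 10 genes of the cDC2 list summed to 906 to 949 CPM there and to 201 to 316 CPM in EGFP-negative cDC1. Highest in EGFP-negative cDC2 were Itgam and Sirpa (means of 366 and 254 CPM), and Sirpa is also on the macrophage list. Between the EGFP-negative gates, 6 of 9 genes tested were higher in cDC2. Mgl2 (108 against 132 CPM) and Clec10a were lower. The 12 monocyte genes summed to 1313 to 2438 CPM and 343 to 911 CPM. Thbs1 and Fn1 led with 767 and 623 CPM in EGFP-negative cDC2, and Plac8 was lower there (65.4 against 374 CPM). Of 11 tested, 7 were higher. The part of either cell type in the levels of the 10 genes described here was not tested. In EGFP-positive cDC1 the macrophage sum was 143 CPM in replicate 1 and 2901 CPM in replicate 2, while Flt3 was at 67.2 and 67.9 CPM. In bulk libraries, fewer cells of a type and less RNA per cell cannot be told apart.

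**Figure D1:**
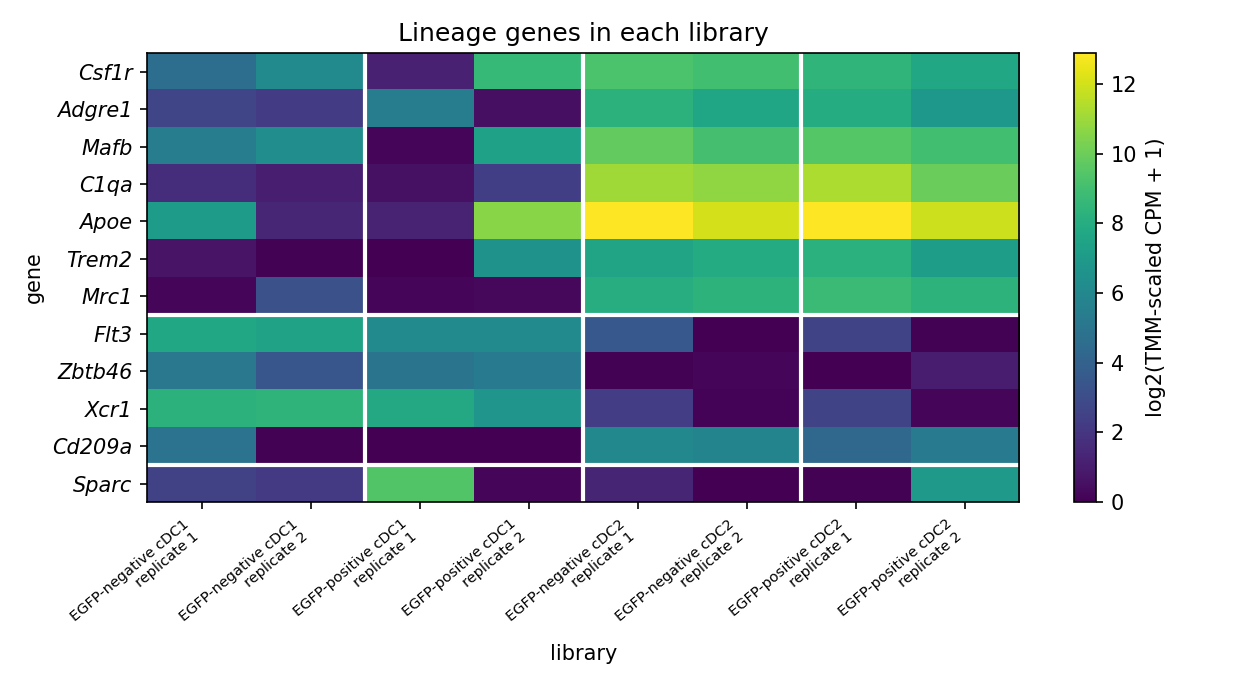
Levels of 12 lineage genes in each of the 8 libraries, as log2 of TMM-scaled CPM plus 1, with macrophage genes in the upper block, dendritic cell genes in the middle and the stromal gene Sparc at the bottom. The 4 cDC2 libraries are bright in the macrophage block shown and dark for Flt3 and Zbtb46. Replicate 2 of EGFP-positive cDC1 is bright for Apoe and Csf1r but dark for Adgre1 and Mrc1. The genes were chosen from longer lists. The low macrophage list genes Cd163, Gpnmb, Maf and Mertk and the class II genes are not shown.

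Arg1 (chr10:24915221-24927484, minus strand) encodes arginase 1, the enzyme that splits arginine into ornithine and urea. It was at 8773 and 7089.9 CPM in the EGFP-negative cDC2 libraries (replicates 1 and 2 here and below) and at 4706 and 2429 CPM in the EGFP-positive ones. In cDC1 it was at 18.9 and 1.54 CPM in the EGFP-negative libraries and at 1.27 and 1362 CPM in the EGFP-positive ones. Within the cDC2 gate both EGFP-positive libraries were below both EGFP-negative libraries, with means of 3567 ± 1610 and 7932 ± 1190.2 CPM (SD, n = 2 each). Replicate 2 of EGFP-positive cDC1 held the only cDC1 value above 20 CPM, 1073-fold above its own replicate. Gene length matters when levels of different genes are compared, and per kilobase of exon Arg1 stood at 5370.03 CPM per kb in EGFP-negative cDC2, between Lyz2 at 15627 and Spp1 at 4987 CPM per kb. In EGFP-positive cDC2 it stood at 2415 CPM per kb, after Lyz2 at 10550.1 and Spp1 at 4669 CPM per kb.

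Lyz2 (chr10:117277331-117282321, minus strand) encodes the lysozyme of macrophages and granulocytes, an enzyme that cuts bacterial cell walls. Its levels were 22622 and 18508 CPM in EGFP-negative cDC2 and 17556 and 10212 CPM in EGFP-positive cDC2. EGFP-negative cDC1 held 1705 and 2276 CPM and EGFP-positive cDC1 290.2 and 8773 CPM. The EGFP-positive cDC2 libraries were again both lower than the EGFP-negative ones. Near absence does not describe this gene in EGFP-negative cDC1, where its mean was 1991 ± 404 CPM (SD, n = 2), 10.3-fold below EGFP-negative cDC2.

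Lyz2 has a close copy, Lyz1, whose coding sequence is shown beside it because reads from shared stretches can be counted for either gene. Over 447 coding bases the 2 genes were identical at 425 (95.1%), with the longest identical run at 118 bases. Of the 50-base windows of the Lyz2 transcript, 15.4% occurred unchanged in Lyz1. The first 120 coding bases from GENCODE M21 follow, 5′ to 3′, with the 11 differing bases in capitals.
Lyz2: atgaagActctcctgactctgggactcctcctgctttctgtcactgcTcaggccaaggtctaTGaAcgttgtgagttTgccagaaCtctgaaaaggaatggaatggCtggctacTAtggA
Lyz1: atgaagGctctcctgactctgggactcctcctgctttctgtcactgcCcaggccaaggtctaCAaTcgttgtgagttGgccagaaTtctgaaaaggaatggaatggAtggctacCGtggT
Lyz1 was counted at 255, 44.0, 56.4 and 55.2 CPM in the 4 cDC2 libraries, far below Lyz2, and at 0.875 to 17.9 CPM in cDC1.

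Spp1 (chr5:104435118-104441050, plus strand) encodes osteopontin, a secreted matrix protein that binds integrins and CD44. In cDC2 it was at 8472 and 7966 CPM in the EGFP-negative and at 8744 and 6645 CPM in the EGFP-positive libraries. In cDC1 it was at 167 and 855 CPM in the EGFP-negative and at 86.8 and 425 CPM in the EGFP-positive libraries. The fractions overlapped in both gates. Spp1 too was plainly detected in EGFP-negative cDC1. Of its 50-base windows, 11.6% were shared with Gm42793, a predicted gene that overlaps it on the same strand.

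Mmp12 (chr9:7344381-7369499, plus strand) and Mmp13 (chr9:7272514-7283331, plus strand) encode macrophage elastase and collagenase 3, and lie 61049 bases apart on chromosome 9 with no other annotated gene between them. Mmp12 was at 1803 and 1222 CPM in EGFP-negative cDC2 and at 1323 and 666 CPM in EGFP-positive cDC2. It was at 0.701 and 12.5 CPM in EGFP-negative cDC1 and at 0.394 and 45.6 CPM in EGFP-positive cDC1. The cDC2 fractions overlapped for Mmp12, and without TMM scaling they did not, with both EGFP-positive libraries lower. Mmp13 was at 166 and 132 CPM in EGFP-negative cDC2 and at 102 and 85.0 CPM in EGFP-positive cDC2, with no overlap. In cDC1 it had 2, 0, 0 and 2 counts in the 4 libraries, at or under the limit of 3. The same library that held 1362 CPM of Arg1 therefore held Mmp12 at 45.6 CPM and Mmp13 at 2 counts.

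Retnla (chr16:48842551-48844461, plus strand) encodes the resistin-like protein RELM alpha, a product of macrophages exposed to interleukin 4. It was at 69.1 and 1.56 CPM in EGFP-negative cDC2 and at 265 and 1586 CPM in EGFP-positive cDC2. Both EGFP-positive libraries were higher, with means of 926 ± 934 against 35.4 ± 47.8 CPM (SD, n = 2 each), but replicates differed by 44.4-fold in the EGFP-negative and 5.98-fold in the EGFP-positive group. In cDC1 it was at 0.0467 and 27.3 CPM in the EGFP-negative libraries and at 0 and 0.491 CPM in the EGFP-positive ones. The 27.3 CPM of EGFP-negative cDC1 replicate 2 exceeded the 1.56 CPM of EGFP-negative cDC2 replicate 2, so the 2 EGFP-negative groups overlapped.

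Saa3 (chr7:46711998-46715700, minus strand) encodes an acute-phase apolipoprotein of macrophages, fat and fibroblasts. It was at 1.08 and 6.59 CPM in EGFP-negative cDC2 and at 105 and 193 CPM in EGFP-positive cDC2. In cDC1 it had 0, 0, 0 and 2 counts. Both EGFP-positive cDC2 libraries were higher than both EGFP-negative ones, with means of 149 ± 62.2 against 3.83 ± 3.90 CPM (SD, n = 2 each). Because fibroblasts can express Saa3, the summed level of 11 stromal genes is given beside it: 5.44 and 2.23 CPM in EGFP-negative cDC2 and 0.26 and 172 CPM in EGFP-positive cDC2. In EGFP-positive replicate 1, Saa3 stood at 105 CPM with a stromal sum of 0.26 CPM and Sparc at 0.0521 CPM. In replicate 2 Saa3 stood at 193 CPM with a stromal sum of 172 CPM. The part of stromal cells in the level of Saa3 was not tested.

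Fcna (chr2:25624666-25628030, minus strand) encodes ficolin A, a secreted lectin that starts the complement lectin pathway. It was at 3.66 and 11.0 CPM in EGFP-negative cDC2 and at 46.9 and 121 CPM in EGFP-positive cDC2. In cDC1 the counts were 0, 0, 0 and 1. Both EGFP-positive cDC2 libraries were higher than both EGFP-negative ones, with means of 83.8 ± 52.2 against 7.31 ± 5.15 CPM (SD, n = 2 each). An antisense gene, Fcnaos, overlaps Fcna, and the use of strand in counting is not given in the sources used here, so reads of both cannot be told apart.

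Folr2 (chr7:101839988-101857194, minus strand) encodes folate receptor beta, a surface receptor of tissue-resident macrophages. It was at 31.1 and 30.0 CPM in EGFP-negative cDC2 and at 145 and 183 CPM in EGFP-positive cDC2. In cDC1 the counts were 0, 0, 0 and 1. Both EGFP-positive cDC2 libraries were higher, and replicates lay within 1.04-fold and 1.26-fold of each other, with means of 164 ± 26.3 against 30.6 ± 0.779 CPM (SD, n = 2 each). Predicted genes on the opposite strand, Gm10602 and Gm45319, overlap it.

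Cd93 (chr2:148436640-148443563, minus strand) encodes a surface glycoprotein of endothelium, monocytes and macrophages. It was at 50.3 and 74.7 CPM in EGFP-negative cDC2 and at 114 and 60.5 CPM in EGFP-positive cDC2, with overlap. In cDC1 the counts were 2, 0, 0 and 0. Beside it, 10 endothelial genes summed to 15.5 to 24.3 CPM in the cDC2 libraries. Most of this was Pecam1, with means of 18.9 CPM in EGFP-negative and 14.1 CPM in EGFP-positive cDC2. In cDC1 the means of Pecam1 were 0.14 CPM without EGFP and 9.72 CPM with it. Vwf went the other way, with lower means in both cDC2 groups than in both cDC1 groups. The endothelial cadherin gene Cdh5 was at 0, 0, 1.04 and 0 CPM in the cDC2 libraries. The part of endothelial cells in the level of Cd93 was not tested.

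**Figure D2:**
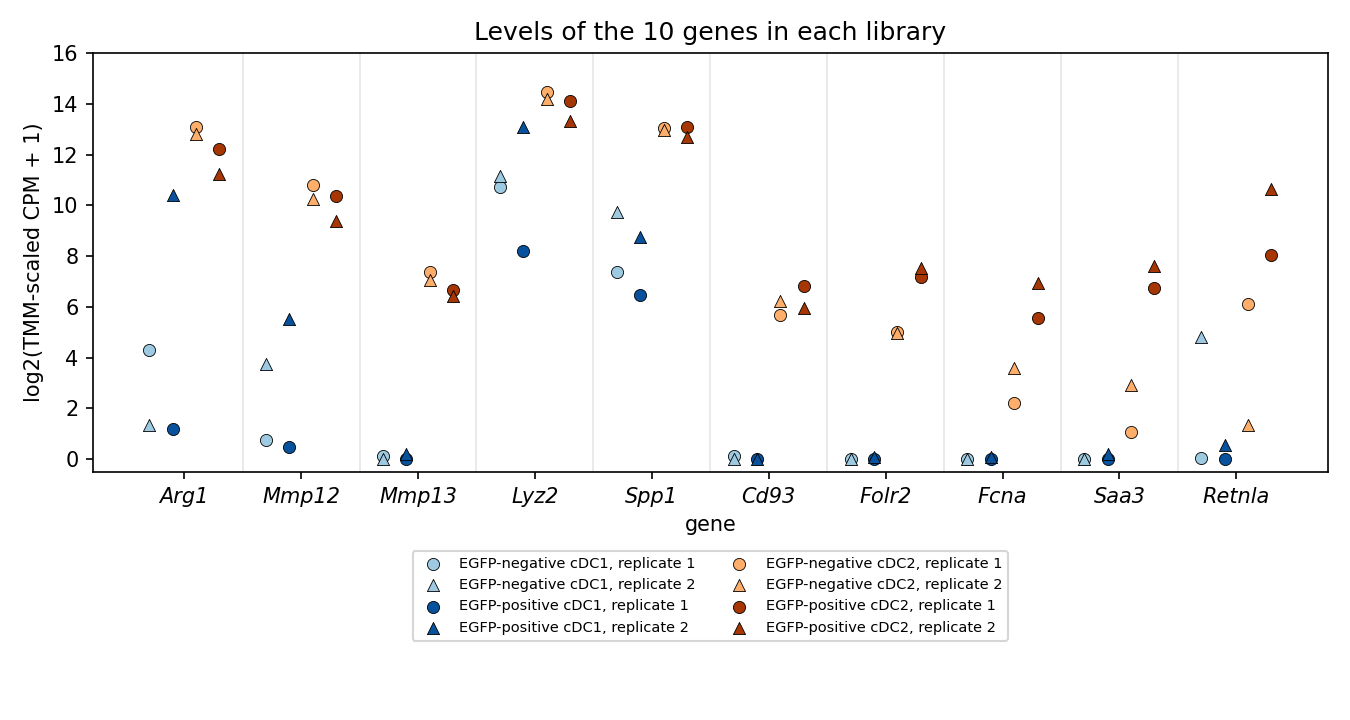
Levels of the 10 genes as log2 of TMM-scaled CPM plus 1, with 1 point for each of the 8 libraries, circles for replicate 1 and triangles for replicate 2. Folr2, Fcna, Saa3 and Retnla are higher in both EGFP-positive cDC2 libraries than in both EGFP-negative ones, Arg1, Mmp13 and Lyz2 lower, and replicate 2 of EGFP-positive cDC1 stands above the other cDC1 libraries for Arg1, Mmp12 and Lyz2.

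The contrast that the genes were picked on is given as a description. In EGFP-negative cells, all 10 had a higher mean in cDC2 than in cDC1 and 9 of 10 did not overlap, beside 26.5% of all genes tested that were higher in both EGFP-negative cDC2 libraries, and this was fixed by the choice (21.9% of all genes were lower in both, and edgeR's test called 0.36% in either direction). Near absence in EGFP-negative cDC1 held for Mmp13 and Cd93, with 2 counts over the group, and for Folr2, Saa3 and Fcna with 0. Against the same counting limit of 3 counts, taken over the group, Folr2 was at least 437-fold, Fcna at least 104-fold and Saa3 at least 54.8-fold higher in EGFP-negative cDC2. The ratio of pooled counts was 3155 for Mmp13 (95% counting interval 873 to 26100) and 1363 for Cd93 (377 to 11300). For Arg1, Mmp12, Spp1 and Retnla the ratio of group means was 775-fold, 229-fold, 16.1-fold and 2.59-fold.

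In EGFP-positive cells all 10 genes were higher in both cDC2 libraries than in both cDC1 libraries, beside 33.2% of all genes tested, with 13.7% lower in both and 0.228% called by edgeR in either direction. The ratio of means was 3768-fold for Retnla, 43.2-fold for Mmp12, 30.1-fold for Spp1, 5.23-fold for Arg1 and 3.06-fold for Lyz2. In EGFP-positive cDC1, replicate 2 was above replicate 1 by 1073-fold for Arg1, 116-fold for Mmp12 and 30.2-fold for Lyz2, so the means of these genes rest on that library. No test is given for these values, since high levels in cDC2 chose the genes.

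The EGFP-positive and EGFP-negative fractions of the cDC2 gate were compared next. The choice of the genes used their levels in the whole gate, so this contrast is not independent of it. Saa3, Fcna and Retnla were low in at least 1 EGFP-negative cDC2 library and count as high in the gate through its EGFP-positive libraries, so their differences are a description and support nothing. The genes split in direction, and none passed the test across all genes. Saa3 had a log2 fold change (EGFP-positive over EGFP-negative) of 5.28 ± 1.30 (standard error), Retnla of 4.71 ± 2.62, Fcna of 3.52 ± 1.15 and Folr2 of 2.42 ± 0.67. Arg1 had −1.15 ± 2.06, Mmp13 −0.67 ± 0.84, Mmp12 −0.60 ± 1.73 and Lyz2 −0.57 ± 1.16. Cd93 stood at 0.48 ± 0.80 and Spp1 at −0.10 ± 0.85. These errors are from 1 model of all 8 libraries, so they also hold the spread within the cDC1 groups. With only the cDC2 libraries fitted, the errors were 0.434 for Arg1, 0.286 for Mmp13, 0.431 for Mmp12 and 0.423 for Lyz2. They were 0.884 for Saa3, 1.67 for Retnla, 0.719 for Fcna and 0.299 for Folr2, and that fit called 0 of the 10. By edgeR's quasi-likelihood test with Benjamini-Hochberg adjustment over all 11394 genes, 0 of the 10 passed the threshold of 0.05, each at an adjusted p of 1. The same test called 0 of all genes tested (0%), with 300 at an unadjusted p under 0.05.

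By count, 4 of the 10 were higher in both EGFP-positive cDC2 libraries, beside 22.6% of all genes tested, and 3 were lower in both, beside 19.2%, and nothing is read from these counts because of the choice. The median log2 fold change of the 10 was 0.19 and that of all genes tested 0.08. The 4 higher genes differed by 5.36-fold to 38.8-fold as fitted and the 3 lower ones by 1.48-fold to 2.22-fold. DESeq2, fitted to the same counts, put Saa3 (log2 fold change 5.27) and Folr2 (2.40) among the 113 genes it called, with the same reservation. No fit called Retnla, whose replicates lay farthest apart of the 10 in EGFP-negative cDC2, at 44.4-fold. The direction of the 4 higher genes was positive in each of 18 alternative fits, which included leaving out each library. That of Arg1, Mmp12, Mmp13 and Lyz2 was negative in each. For all of these but Mmp12 the cDC2 libraries did not overlap, so leaving 1 out could hardly change the sign. Nothing is read from the kept directions.

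**Figure D3:**
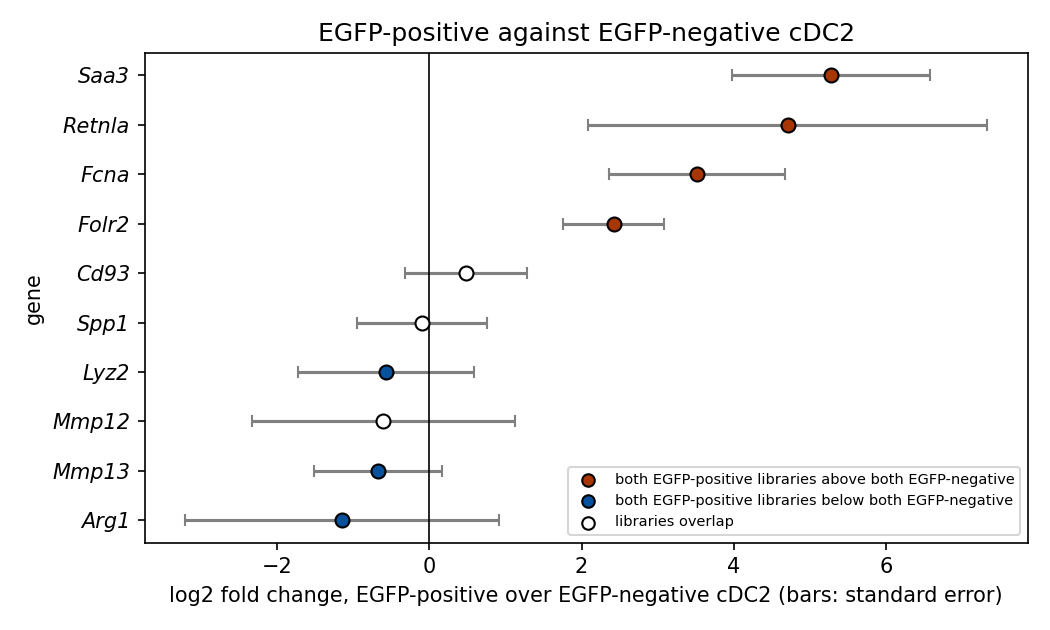
Log2 fold change of each gene between EGFP-positive and EGFP-negative cDC2 in the edgeR fit of all 8 libraries. Bars give the standard error of that fit, and colours whether the 2 libraries a group overlapped. The bars of Saa3, Retnla, Fcna and Folr2 lie above 0, and those of the other 6 genes cross 0.

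General macrophage genes of the same libraries are given beside this split. Of 18 macrophage lineage genes, 0 passed the test for EGFP in cDC2. Without overlap 3 were higher and 3 lower, shares near the 22.6% and 19.2% of all genes tested, and the median log2 fold change was −0.16. The lipid carrier gene Apoe was at 7420 and 4298 CPM in EGFP-negative and at 7549 and 3790.1 CPM in EGFP-positive cDC2. C1qb and C1qa, which encode chains of complement C1q, overlapped as well, with C1qa at 2096 and 1718 against 2478 and 979 CPM. Csf1r was lower in both EGFP-positive libraries (604 and 507 against 344 and 205 CPM), and Maf, a transcription factor gene of resident macrophages, higher in both (10.9 and 12.2 against 52.4 and 73.0 CPM). Csf1r and Maf were named after their values were seen.

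In EGFP-positive cDC1 the 10 genes parted between the replicates. Replicate 2 held Arg1 at 1362, Lyz2 at 8773 and Mmp12 at 45.6 CPM, and replicate 1 held them at 1.27, 290.2 and 0.394 CPM. The 5 genes near 0 in EGFP-negative cDC1 stayed at 0 to 2 counts in both EGFP-positive libraries. Other macrophage genes moved with the first set: replicate 2 against replicate 1 showed Apoe at 1543 against 1.31 CPM, Csf1r at 401 against 1.27 CPM and Trem2 at 92.9 against 0 CPM. C1qa was at 4.21 against 0.481 CPM, Mrc1 at 0.211 against 0.175 CPM and Adgre1, which encodes F4/80, at 0.421 against 41.7 CPM. Their part in the levels of Arg1 and Lyz2 was not tested. Replicate 1 was the library with Sparc at 674 CPM and a stromal sum of 811 CPM. No member is tested for EGFP in cDC1, because the genes were chosen for low levels in its EGFP-negative libraries. All 10 overlapped between the fractions there, beside 11.5% of all genes tested that were higher and 24.0% that were lower in both EGFP-positive libraries. Mmp13, Folr2, Saa3, Cd93 and Fcna had 0 counts in at least 1 library of each fraction, which by itself makes them overlap. Nothing is read from this count. EdgeR called 0% of all genes for EGFP in cDC1, with 1452 at an unadjusted p under 0.05, and DESeq2 called 1357.

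Genes around the members were read from lists of their pathways. For arginine and polyamine metabolism, 0 of 12 genes tested passed for EGFP in cDC2, beside 0% of all genes. Odc1, which makes putrescine from the ornithine that arginase yields, was at 148 and 174 CPM in EGFP-negative and at 253 and 248 CPM in EGFP-positive cDC2. Oat, which draws ornithine toward proline, was at 109.6 and 105.5 against 37.1 and 55.2 CPM (unadjusted p = 0.00977 by edgeR, adjusted p = 1). Sat1, which acetylates polyamines, overlapped at 414 and 536 against 899.7 and 474 CPM. Arg2, the mitochondrial arginase, was at 86.1 and 46.5 against 35.7 and 33.1 CPM, far below Arg1.

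Of 14 matrix proteases and inhibitors tested, 0 passed for EGFP in cDC2, with 3 higher and 3 lower without overlap, near the 22.6% and 19.2% of all genes. The cathepsin gene Ctss was at 7534 and 5966 CPM in EGFP-negative and at 9307 and 3323 CPM in EGFP-positive cDC2. Plaur, the urokinase receptor gene, was at 797 and 923 against 651 and 424 CPM, and Adam8 at 433 and 392 against 507 and 320 CPM. Mmp9 and Mmp3 stayed under 3 CPM in all 4 cDC2 libraries, while Mmp14, a membrane-bound collagenase, lay between 73.9 and 135.5 CPM.

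Of 7 osteopontin receptor genes tested, 0 passed for EGFP in cDC2. Cd44 was at 278 and 289 CPM in EGFP-negative and at 509.9 and 519.7 CPM in EGFP-positive cDC2, a log2 fold change of 0.86 ± 0.28 (unadjusted p = 0.0161, adjusted p = 1 by edgeR). The integrin genes Itgb1 and Itga4 were at 126 to 152 and 30.8 to 46.6 CPM over the 4 libraries.

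Retnla belongs with the genes of alternative activation by interleukin 4 and STAT6. Of 19 such genes tested, 0 passed for EGFP in cDC2. Without overlap 4 were higher and 5 lower, near the 22.6% and 19.2% of all genes, and their median log2 fold change was −0.37. Mrc1, the mannose receptor gene, was at 261 and 325 against 433 and 323 CPM. The beta-glucan receptor gene Clec7a was at 1017 and 1404 against 1004 and 622 CPM, and Tgm2, a transglutaminase gene, at 683 and 356 against 352 and 122 CPM. Chil3, like Retnla a classical product of this state, was at 30.4 and 76.8 against 54.8 and 24.5 CPM, with overlap between the fractions.

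Close relatives of the members were mostly silent. Of 15 relatives listed, 13 had 0 counts in both EGFP-negative cDC2 libraries and 12 in both EGFP-positive ones. Saa1, Saa2, Retnlb, Retnlg, Retn, Folr1 and Fcnb had 0 counts in all 8 libraries. For neutrophils, which also make lysozyme, 11 genes summed to 10.6 to 41.6 CPM in the cDC2 libraries, with S100a9 and Ngp at 0. S100a8, Mmp8 and Csf3r had means of 10.3, 10.9 and 4.66 CPM in EGFP-negative cDC2 and 10.2, 3.93 and 11.9 CPM in EGFP-positive cDC2. Their means were 0, 0.0233 and 1.61 CPM in EGFP-negative cDC1 and 0.0219, 4.18 and 12.7 CPM in EGFP-positive cDC1. T and NK cell genes summed to at most 1.61 CPM and B cell genes to at most 4.89 CPM in the cDC2 libraries. The carcinoma and epithelial list summed to 0.377 to 23.2 CPM there, with Krt8 at 0 in all 8 libraries. Most of it was Cdh1, with means of 11.8 CPM in EGFP-negative and 6.42 CPM in EGFP-positive cDC2. In cDC1 the means of Cdh1 were 2.56 CPM without EGFP and 24.7 CPM with it. Epcam had a mean of 1.25 CPM in EGFP-positive cDC2, and Krt18 of 5.24 CPM in EGFP-negative cDC1.

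Between the gates, C1qa was the macrophage lineage gene, of 18 tested, that passed the edgeR test in EGFP-negative cells (1907 against 1.66 CPM, log2 fold change 10.16 ± 1.28 for cDC2 over cDC1, adjusted p = 0.0323) and in EGFP-positive cells (1729 against 2.35 CPM, 9.54 ± 1.25, adjusted p = 0.0405). Its call was kept in 11 of 18 alternative fits in EGFP-negative cells and in 6 of 17 in EGFP-positive cells, by edgeR, DESeq2 or voom. It was lost without either EGFP-negative cDC1 or either EGFP-negative cDC2 library in EGFP-negative cells (largest adjusted p = 0.266 by edgeR), and in EGFP-positive cells without any 1 library other than those of EGFP-positive cDC1 (adjusted p = 0.0775 to 0.132 by edgeR), while the log2 fold change stayed at 8.64 or more in every alternative. The background of genes called higher in cDC2 was 0.246% and 0.114%. Without overlap, 17 of 18 and 15 of 18 were higher in cDC2, beside the 26.5% and 33.2% given above. The members were picked for their pattern between the gates, and the lists were chosen with earlier results of these data known. The calls and counts of list genes between the gates are therefore a description. Of 10 cDC1 genes, Cd24a, a surface glycoprotein gene, was lower in cDC2 in EGFP-negative cells (25.1 against 1207 CPM, log2 fold change −5.58 ± 0.41, adjusted p = 0.00843 by edgeR) and in EGFP-positive cells (31.1 against 649 CPM, −4.38 ± 0.38, adjusted p = 0.0223 by edgeR). Wdfy4, needed for cross-presentation by cDC1, was lower in EGFP-negative cells (11.6 against 324 CPM, −4.81 ± 0.68, adjusted p = 0.0467 by edgeR). The background of genes called lower in cDC2 was 0.114% in both. Leaving out 1 library ended the call of Cd24a in 3 of 8 fits in each fraction, and that of Wdfy4 in 4 of 8 fits in EGFP-negative cells, those without a library of the groups compared. The call of Cd24a was lost without EGFP-negative cDC1 replicate 2 or either EGFP-negative cDC2 library in EGFP-negative cells, and without either EGFP-negative cDC2 library or EGFP-positive cDC2 replicate 2 in EGFP-positive cells (adjusted p = 0.0565 to 0.143 by edgeR).

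Of the 10 members, 8 had an entry, with 11 start sites in all, in the RefSeq promoter table for GRCm38.p6; Arg1 and Cd93 had none. Promoters are shown for Mmp13, which was lower in both EGFP-positive cDC2 libraries, and for the higher genes with 1 start site, Retnla, Saa3 and Fcna. Each begins 250 bases before the RefSeq start and ends before the first annotated transcribed base, 5′ to 3′ on the strand of the gene. Capitals mark matches, on either strand, to TGANTCA (AP-1), TTGCNNAA (C/EBP), GAGGAAG (PU.1) and the STAT6 motif (TTC, any 4 bases, GAA).
Mmp13, chr9:7272264-7272513, + strand: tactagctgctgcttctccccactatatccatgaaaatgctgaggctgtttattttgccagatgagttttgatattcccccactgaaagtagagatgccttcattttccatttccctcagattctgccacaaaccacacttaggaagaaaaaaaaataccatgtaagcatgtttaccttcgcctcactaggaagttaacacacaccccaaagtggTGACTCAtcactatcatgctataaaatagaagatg
Retnla, chr16:48842359-48842550, + strand: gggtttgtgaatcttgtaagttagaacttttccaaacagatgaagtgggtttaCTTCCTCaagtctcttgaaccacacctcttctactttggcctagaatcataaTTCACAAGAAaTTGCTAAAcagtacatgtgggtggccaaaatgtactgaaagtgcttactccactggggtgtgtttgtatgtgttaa
Saa3, chr7:46715701-46715926, - strand: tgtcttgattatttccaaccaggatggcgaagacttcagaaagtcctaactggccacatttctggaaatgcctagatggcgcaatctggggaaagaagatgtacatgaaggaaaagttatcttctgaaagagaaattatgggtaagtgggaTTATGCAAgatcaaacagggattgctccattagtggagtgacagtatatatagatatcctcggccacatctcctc
Fcna, chr2:25628031-25628224, - strand: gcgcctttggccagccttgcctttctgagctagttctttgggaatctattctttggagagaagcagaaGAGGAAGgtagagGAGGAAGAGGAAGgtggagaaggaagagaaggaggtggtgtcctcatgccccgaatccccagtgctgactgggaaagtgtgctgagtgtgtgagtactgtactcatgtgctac
Mmp13 held 1 AP-1 match that began 35 bases before its start. Retnla held a STAT6 match beginning at −145, a C/EBP match at −134 beside it and a PU.1 match at −197. Saa3 held 1 C/EBP match at −99, and Fcna held 3 PU.1 matches at −182, −169 and −163, of which the last 2 overlap by 1 base. Over all 32851 starts, the same 250 bases held an AP-1 match in 6.75%, C/EBP in 9.56%, PU.1 in 10.6% and STAT6 in 5.85%. Lyz2, also lower in both EGFP-positive cDC2 libraries and with 1 start site, held 0 matches to the 4 motifs and is not shown. Among the genes with 2 start sites, Folr2 held an AP-1 match at −74 of 1 start and 0 matches at the other, Spp1 a PU.1 match at −113 of 1 start and a C/EBP match at −156 of the other, and Mmp12 a PU.1 and a C/EBP match at 1 start and an AP-1 match at the other. The promoters shown were thus picked with their matches known, so that all of them hold one. A match describes letters, and binding was not measured here.

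The genes whose profile was most like the mean of the 10 over the 8 libraries were Lamtor4, Syk, Pf4, Rnf149 and Nceh1, with Pearson's r of 0.991, 0.987, 0.978, 0.973 and 0.972 among 5944 genes of at least 10 CPM on average. Libraries of the same gate are shared by all points, so these are descriptions. Syk, a kinase below lectin and Fc receptors, was at 12.9 to 19.1 CPM in cDC1 and 53.9 to 65.5 CPM in cDC2. Pf4, a chemokine gene, was at 0.0935 to 0.421 CPM in cDC1 and at 581, 249.7, 885 and 784 CPM in cDC2. The gene most like Folr2 was Ccl8 (r = 0.989), a monocyte chemokine gene at 160.4 and 41.1 CPM in EGFP-negative and 1596 and 1764 CPM in EGFP-positive cDC2. The one most like Saa3 was Cbr2 (r = 0.975), a carbonyl reductase gene at 0.485 and 13.1 against 36.1 and 57.0 CPM. Arg1 was matched best by the complement gene C3 (r = 0.994), which at 69.7 CPM was also high in replicate 2 of EGFP-positive cDC1.

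As a share of all counts, the 10 genes made up 3.88% and 3.87% in EGFP-negative cDC2 and 3.30% and 2.46% in EGFP-positive cDC2. In cDC1 they made up 0.19% and 0.307% without EGFP and 0.0432% and 0.846% with it. Lyz2 supplied 2.09%, 2.04%, 1.75% and 1.13% in the cDC2 libraries.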

How the data were processed

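Gene expression was measured by RNA sequencing in 8 libraries, 2 for each of 4 groups taken from the titles. Per the labels' protocols, full-length cDNA from low input went into KAPA libraries. The submitters' processing notes name the mm10 build, STAR 2.7.5c, Trimmomatic 0.39 and Cufflinks 2.2.1. The read counter, its annotation and its strand setting were not given in the sources used here. Raw read counts, whole numbers per gene symbol, were deposited by the authors, and 0 columns were left without a sample. Members and gene lists were chosen with earlier results of these data known.

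The edgeR 4.0.16 quasi-likelihood test (R 4.3.3; filterByExpr, TMM, robust glmQLFit, glmQLFTest) was run on the counts in 1 model of all 8 libraries with a mean per group, and p-values were adjusted by Benjamini-Hochberg over 11394 genes. A standard error is the absolute log2 fold change over the square root of F. The steps were also run on simulated counts with known changes, whose outcome is not given here and from which nothing is read. The common dispersion of the fit was 1.28, a coefficient of variation between libraries of a group of 1.13. Alternatives were DESeq2 1.42.0, voom in limma 3.58.1 with quality weights, RLE scaling, 2 other filters, no robust estimation, only the libraries compared, the replicate number as a block, removal of Rn45s and leaving out each library. Leaving out both EGFP-positive cDC1 libraries was added after seeing the data. All 10 members are named; of each list, genes called (up to 4), otherwise up to 3 of highest mean CPM, and any others were chosen after their values were seen. For lists of other cell types, sums and defining genes are given, with the highest genes added for neutrophils, endothelium and epithelium. Neighbours in pattern were the genes of highest Pearson correlation of log2(CPM + 1), among those with a mean of at least 10 CPM and no predicted-gene or clone symbol. Gene models are from GENCODE M21 and promoters from RefSeq, both on GRCm38.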

Additional observations from a re-analysis of the deposited data

How the results depend on the processing

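For EGFP in cDC2, 0 genes were called by edgeR under each alternative, against 113 by DESeq2 and 2 by voom with quality weights. Of the 10 members DESeq2 called 2 and each other alternative 0. The log2 fold change changed sign for Cd93 without EGFP-positive cDC2 replicate 1 (−0.147, and 0.863 without replicate 2) and for Spp1 without EGFP-positive cDC2 replicate 2 (0.088, and −0.409 without replicate 1). Over the 18 alternatives Retnla ranged from 2.75 to 9.20, Saa3 from 4.50 to 7.10, Fcna from 2.68 to 4.51 and Folr2 from 2.25 to 2.47. Without EGFP-negative cDC2 replicate 1 Saa3 stood at 4.50, Fcna at 2.93 and Retnla at 9.20; without its replicate 2 they stood at 7.10, 4.51 and 3.74. Without EGFP-positive cDC2 replicate 1 they stood at 5.56, 3.95 and 5.38; without its replicate 2 at 4.78, 2.68 and 2.91. Mean levels were 1.37 to 1.40 times as high when Rn45s was removed.

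Counts over all genes moved more. For EGFP in cDC1, 0 genes became 1357 with DESeq2 and 57 without a low-count filter, and 0 to 1050 with 1 library left out, where 763 were called without EGFP-positive cDC1 replicate 1 and 1050 without replicate 2. For cDC2 against cDC1 in EGFP-negative cells, 41 became 835 with DESeq2, 112 without a filter, 25 without robust estimation, 471 with voom, 292 with only the libraries compared and 392 without both EGFP-positive cDC1 libraries, with 1 to 465 when 1 library was left out. In EGFP-positive cells, 26 became 1594, 153, 12, 11 and 0 under the first 5 of these, with 1 to 1273 when 1 library was left out. The cause was not tested. With the replicate number as a block, the counts were 0 for EGFP in cDC2, 0 for EGFP in cDC1, 3 in EGFP-negative and 0 in EGFP-positive cells, and C1qa had an adjusted p of 0.0966 and 0.109 by edgeR in the last 2. The titles carry a code that recurs with each replicate number in all 4 groups, but the labels do not say what it marks. Deviations from the group means correlated between same-numbered libraries by −0.224 to 0.0408. This does not decide whether they share a source, because each deviation also holds any other difference between the 2 libraries of a group. A missed threshold is no sign of equal levels.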
